A study of Mus musculus with 4 samples.

Results

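The COPII coat was followed by 10 genes, Sec13, Sec31a, Sec23a, Sec23b, Sec24a, Sec24b, Sec24c, Sec24d, Sar1a and Sar1b. The set was chosen by the fall of Sec13 in these same libraries, so the values of Sec13 below are a description with no test. RNA was sequenced from 46C Atad2-tag cells, a line derived from 46C mouse embryonic stem (ES) cells by knock-in of a TAP tag into the Atad2 gene. All 4 libraries came from this tagged line, which is 1 selected clone. In 2 libraries (si-ctrl 1 and 2) the cells had received a scrambled, inactive siRNA, and in the other 2 (si-Atad2 1 and 2) active siRNA against Atad2, a chromatin-bound bromodomain ATPase. The sample labels speak of a single active siRNA and of replicates, whereas a figure legend of the study describes more than 1 active siRNA and repeated sequencing of every RNA. Which siRNA each si-Atad2 library holds was therefore not settled, and a difference between si-Atad2 1 and si-Atad2 2 cannot be told apart from one between siRNAs. The cells were kept in serum with LIF, and the time between transfection and harvest was not given in the sources used here. Of the 10 genes, 9 had a named transcript in the deposited tables and all 9 reached a mean of 1 FPKM, among 10147 genes that were tested. Sec24c had no named transcript, and its value under a looser rule is given apart.

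COPII is the protein coat that buds transport vesicles from the endoplasmic reticulum (ER) towards the Golgi. The small GTPases Sar1a and Sar1b start the coat on the membrane, the Sec23 and Sec24 proteins form its inner layer, in which Sec23 speeds GTP hydrolysis by Sar1 and Sec24 binds the cargo, and Sec13 and Sec31a build the outer cage. Sec13 is also a subunit of the nuclear pore Y complex and of GATOR2, which acts upstream of mTORC1.

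The knockdown, the quality of the libraries and the cell type were checked first. Atad2 read 34.1 and 36.0 FPKM (sequenced fragments divided by transcript length and by library size) in si-ctrl 1 and 2, against 10.1 and 13.03 FPKM in si-Atad2 1 and 2. Its mean log2 ratio of si-Atad2 over si-ctrl was -1.53 (SE 0.077, adjusted p = 4.08e-06 by limma). Of 8 ES cell markers, all 8 were tested and 0 passed the adjusted p threshold of 0.05. Over all 10147 genes tested, 0.443% were called lower and 1.64% higher. The ratio was below 0 in both pairs for 7 of them, where it was so for 3451 of the 10147 genes tested, and above 0 in both for 1. Nanog read 338 and 332 FPKM in the controls, 253 FPKM in si-Atad2 1 and 313 FPKM in si-Atad2 2 (mean log2 ratio -0.25, SE 0.073, adjusted p = 0.11). Pou5f1 read 807 and 778 FPKM in the controls against 739 and 701 FPKM in si-Atad2 (mean log2 ratio -0.14, SE 0.053, adjusted p = 0.22). The part of these markers in the ratios of the coat genes was not tested. Of 7 fibroblast markers, Thy1 (5.56 to 6.75 FPKM) and Col1a1 (1.16 to 1.46 FPKM) reached 1 FPKM, Lum was listed at 0 in every library, and neither tested marker passed. Of 8 germ layer markers, 3 reached 1 FPKM and 0 passed. The ratios of the first pair (si-Atad2 1 over si-ctrl 1) were related to the GC content of the genes (Spearman's rho across genes -0.28) and those of the second were less so (0.090), and genes are not independent replicates. If the libraries of a condition repeat the sequencing of 1 RNA, as that legend can be read, p-values measure technical spread only. No read counts are given, so that the depth of each library is unknown.

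The stretches upstream of the annotated first exons of 3 members are shown because they belong to the outer coat pair, Sec13 and Sec31a, and to Sec23a, the member whose si-Atad2 values lay above both controls. They come from the RefSeq promoter windows (250 bases before to 50 after a start, build GRCm38.p6), in which all 10 genes had at least 1 window and the set had 12 in all. Capitals mark 6 motifs found on either strand. The ETS core was searched as CCGGAAG. For the GC box the letters were GGGCGG. The core of the cAMP response element is TGACGT. The CCAAT box is named by its letters. Matches to CACGTG were taken as an E-box. A TATA box had to read TATAAA. Each is written 5′ to 3′ on the strand of its gene, and that of Sec13 runs a few bases into the outermost annotated exon.
Sec13, chr6:113740734-113740931, minus strand: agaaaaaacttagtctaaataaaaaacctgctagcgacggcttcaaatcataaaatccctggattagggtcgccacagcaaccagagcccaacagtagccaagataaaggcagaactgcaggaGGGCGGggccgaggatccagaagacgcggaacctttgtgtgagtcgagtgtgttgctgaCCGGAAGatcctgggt
Sec31a, chr5:100416235-100416484, minus strand: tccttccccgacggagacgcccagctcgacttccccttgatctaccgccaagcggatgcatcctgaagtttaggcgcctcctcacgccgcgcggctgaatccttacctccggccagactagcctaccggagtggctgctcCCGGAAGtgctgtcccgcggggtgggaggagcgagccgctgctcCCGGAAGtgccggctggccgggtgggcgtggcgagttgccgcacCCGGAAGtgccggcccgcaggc
Sec23a, chr12:59012018-59012267, minus strand: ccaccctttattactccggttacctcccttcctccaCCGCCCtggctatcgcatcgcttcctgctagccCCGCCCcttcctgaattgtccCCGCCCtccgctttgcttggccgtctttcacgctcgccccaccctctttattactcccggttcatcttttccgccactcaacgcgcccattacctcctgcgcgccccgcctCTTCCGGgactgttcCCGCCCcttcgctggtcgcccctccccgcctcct

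The Sec31a stretch held CCGGAAG 3 times, with first bases at -110, -66 and -22 relative to the RefSeq start, that is at a spacing of 44 bases. Sec13 had the same letters at -68 and at -26, of which the first lies in the stretch shown, and Sec23a had them on the other strand at -49. The ETS core was found in windows of 6 of the 10 genes (Sar1a, Sar1b, Sec13, Sec23a, Sec24c and Sec31a), 6 of the 12 windows, whereas 8.86% of 32851 mouse promoter windows held it. The cAMP response element core was present in 6 of the 12 windows, against 7.51% of all windows, and the GC box in 7, against 35.7%. The CCAAT box was found in 4 windows, against 37.4%, the E-box in 1, against 7.15%, and the TATA box in 1, against 13.6%. The ER stress response element (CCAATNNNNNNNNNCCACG) was in none of them and in 0.119% of all windows. A match of letters is a description of the sequence and shows no bound factor. The GC content of the 12 windows ran from 39.7% to 72%, beside a median of 52.7% over all windows. The shares of all windows were not matched for GC content. The ETS core stood upstream of Sec13, Sec31a and Sec23a alike. The RefSeq window of Sec24a lies at an internal start. By the GENCODE annotation, Sec24a and Sar1b are neighbours on chromosome 11 and start 52 bases apart on opposite strands.

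In the si-ctrl libraries Sec13 was the highest of the coat genes, with 119.1 and 109.2 FPKM, above 96.5% of the genes tested. Sec31a, its partner in the cage, followed with 67.8 and 67.4 FPKM. Sec23b, 1 of the 2 Sec23 genes, read 63.2 and 63.6 FPKM and its paralogue Sec23a 21.8 and 22.9 FPKM. The GTPases lay close to each other, Sar1a at 37.4 and 38.2 FPKM and Sar1b at 33.3 and 33.4 FPKM. The 3 cargo-binding subunits with a named transcript were the lowest, Sec24b at 19.2 and 18.7 FPKM, Sec24a at 13.1 and 13.3 FPKM, and Sec24d at 10.7 and 10.3 FPKM. The order by mean level was thus Sec13, Sec31a, Sec23b, Sar1a, Sar1b, Sec23a, Sec24b, Sec24a and Sec24d, and no neighbours in it overlapped over the 2 si-ctrl libraries. This order rests on naming a transcript as the only coding gene of its locus. With transcripts named by length alone, 4 of the 9 genes had a value, and Sec13 was not among them. The mean of Sec23b was then 0.506 and that of Sec24a 0.120 FPKM, below the 62.3 of Sec31a and the 22.3 of Sec23a. FPKM is per transcript length, so these levels can be set side by side between genes, and the 2 control libraries were scaled in separate Cuffdiff runs. The ratio of si-ctrl 2 over si-ctrl 1 was related to GC content (Spearman's rho across genes -0.54), which limits comparisons between genes of unlike GC. 

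**Figure D1:**
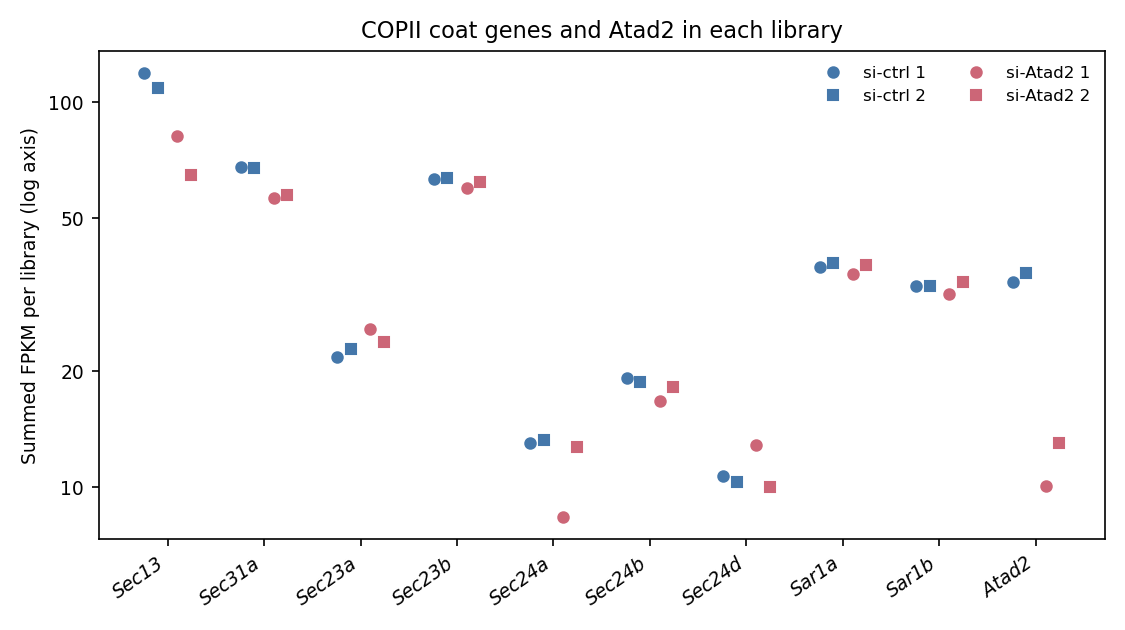
Summed FPKM (log axis) of the 9 measured COPII coat genes and of Atad2, with 1 point for each library, si-ctrl in blue and si-Atad2 in red, circles for libraries numbered 1 and squares for those numbered 2. Sec13 sits at 119.1 and 109.2 FPKM in the controls and at 81.9 and 64.7 FPKM in si-Atad2, and Sec31a at 67.8 and 67.4 FPKM and at 56.5 and 57.5 FPKM.

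Sec13, the small subunit of the outer cage, is encoded on the minus strand of chromosome 6 (chr6:113728062-113740743, GRCm38). It was measured by a single transcript of 1301 bases, named by the only coding gene of the locus and not by length. It read 119.1 FPKM in si-ctrl 1 against 81.9 FPKM in si-Atad2 1, and 109.2 FPKM in si-ctrl 2 against 64.7 FPKM in si-Atad2 2. Both si-Atad2 libraries lay below both si-ctrl libraries, and the level was 68.7% of the control in the first pair and 59.2% in the second. In the tables the authors give each value a 95% interval within its library. This ran from 116.4 to 121.9 FPKM in si-ctrl 1 and from 79.6 to 84.2 FPKM in si-Atad2 1. In the second pair it ran from 106.4 to 111.9 FPKM in si-ctrl 2 and from 62.6 to 66.7 FPKM in si-Atad2 2. Such an interval holds no spread between libraries and is no test of Sec13. The log2 ratios were -0.54 and -0.75, with a mean of -0.64. By its mean ratio Sec13 was the 9th lowest of the 10147 genes, and it was the 43rd and the 10th lowest in the first and the second pair. These values chose the set. In bulk RNA a lower level per cell and fewer cells with the transcript cannot be told apart.

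Sec31a, the rod-forming partner of Sec13 (chr5:100361649-100416234, minus strand), was the next coat gene with like values in both pairs. It read 67.8 and 67.4 FPKM in si-ctrl 1 and 2 against 56.5 and 57.5 FPKM in si-Atad2 1 and 2, so that the groups did not overlap. The log2 ratios were -0.26 and -0.23, with a mean of -0.24 (SE 0.060). The adjusted p was 0.070, which missed the threshold. With 1 library left out of the fit without pairs, the log2 ratio ran from -0.25 to -0.23. Such a fit leaves 1 library in a condition, so no p is given. Its longest transcript (4228 bases) carried most of the level, from 54.5 to 43.2 FPKM in the first pair and from 54.4 to 47.2 FPKM in the second. A transcript of 3196 bases read 5.07 and 5.18 FPKM in the first pair and 5.63 and 5.08 FPKM in the second, and one of 1196 bases read 8.22 and 8.13 FPKM, then 7.41 and 5.26 FPKM. The FPKM of Sec13 over that of Sec31a was 1.76 and 1.62 in si-ctrl 1 and 2 and 1.45 and 1.12 in si-Atad2 1 and 2. The 2 partners of the cage thus stood nearer to each other in both knockdown libraries, a measure that includes the change of Sec13 by which the set was chosen.

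The inner coat gave no member past the threshold. Sec23b (chr2:144556229-144590749, plus strand) read 63.2 and 63.6 FPKM in the controls against 60.0 and 62.0 FPKM in si-Atad2, a mean log2 ratio of -0.054 (SE 0.060, adjusted p = 0.71). Sec23a (chr12:58958383-59012017, minus strand) read 21.8 and 22.9 FPKM in the controls against 25.8 and 23.8 FPKM in si-Atad2. Both si-Atad2 values of Sec23a were above both controls, with a mean log2 ratio of 0.14 (SE 0.071, adjusted p = 0.36). With 1 library left out of the fit without pairs, the log2 ratio ran from 0.088 (without si-Atad2 1) to 0.20 (without si-Atad2 2). An antisense gene, Gm17529, covers 8.91% of the exonic bases of Sec23a, and since use of the strand was not stated the reads of both cannot be told apart. Together the 2 Sec23 genes summed to 84.9 and 86.5 FPKM in si-ctrl and to 85.8 FPKM in each si-Atad2 library. Sec23b made 74.4% and 73.6% of that sum in si-ctrl 1 and 2, and 69.9% and 72.3% in si-Atad2 1 and 2.

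The Sec24 genes encode the subunits that read the export signals of cargo proteins, and a pair of them stood apart in si-Atad2 1. Sec24a (chr11:51692264-51763634, minus strand) read 13.1 and 13.3 FPKM in si-ctrl, 8.37 FPKM in si-Atad2 1 and 12.7 FPKM in si-Atad2 2. The low value was thus that of si-Atad2 1 alone, and the log2 ratios were -0.59 and -0.056 (mean -0.32, SE 0.11, adjusted p = 0.16). Without si-Atad2 1 the fit without pairs gave -0.046, and without si-Atad2 2 it gave -0.60. Each of these fits holds 1 knockdown library, so no p is given. Most of its FPKM fell on a pair of transcripts of 6798 and 6795 bases, between which reads are hard to divide. These were not read apart, and the value of Sec24a is the sum over all 8 of its transcripts. Sec24d (chr3:123267455-123365641, plus strand) went the other way in the same library, with 10.7 and 10.3 FPKM in si-ctrl, 12.9 FPKM in si-Atad2 1 and 10.0 FPKM in si-Atad2 2. Its mean log2 ratio was 0.10 (SE 0.083, adjusted p = 0.58). In the fit without pairs it was 0.27 without si-Atad2 2 and -0.062 without si-Atad2 1. Sec24b (chr3:129982759-130061553, minus strand) read 19.2 and 18.7 FPKM in the controls against 16.8 and 18.2 FPKM in si-Atad2, a mean log2 ratio of -0.11 (SE 0.071, adjusted p = 0.48). Of the summed FPKM of these 3 genes, Sec24a made 30.4% and 31.4% in si-ctrl 1 and 2, 22.0% in si-Atad2 1 and 31.1% in si-Atad2 2, whereas the share of Sec24b stayed between 44.1% and 44.7%.

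Sec24c (chr14:20674308-20694852, plus strand) shares its locus with other genes, and its exons with the antisense gene 6230400D17Rik over 3.40% of their bases. With a length tolerance of 20 bases, added after the data were seen, 1 transcript of 4446 bases could be given to it. That transcript read 31.1 and 28.5 FPKM in the controls against 37.1 and 32.0 FPKM in si-Atad2, with no overlap between the groups. The log2 ratio was 0.21 (adjusted p = 0.14), and the assignment is uncertain.

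The GTPases that start the coat lay near their control level. Sar1a (chr10:61680299-61693297, plus strand) read 37.4 and 38.2 FPKM in the controls against 35.9 and 37.8 FPKM in si-Atad2, a mean log2 ratio of -0.038 (SE 0.063, adjusted p = 0.82). Sar1b (chr11:51763687-51791925, plus strand) read 33.3 and 33.4 FPKM in the controls against 31.8 and 34.2 FPKM in si-Atad2, a mean log2 ratio of -0.014 (SE 0.065, adjusted p = 0.94), and its sign turned on rescaling to TPM (0.020). The groups overlapped for both. Sar1a made between 52.5% and 53.4% of their sum in the 4 libraries. Sar1b lay near its control in si-Atad2 1, where its close neighbour Sec24a was at its lowest.

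**Figure D2:**
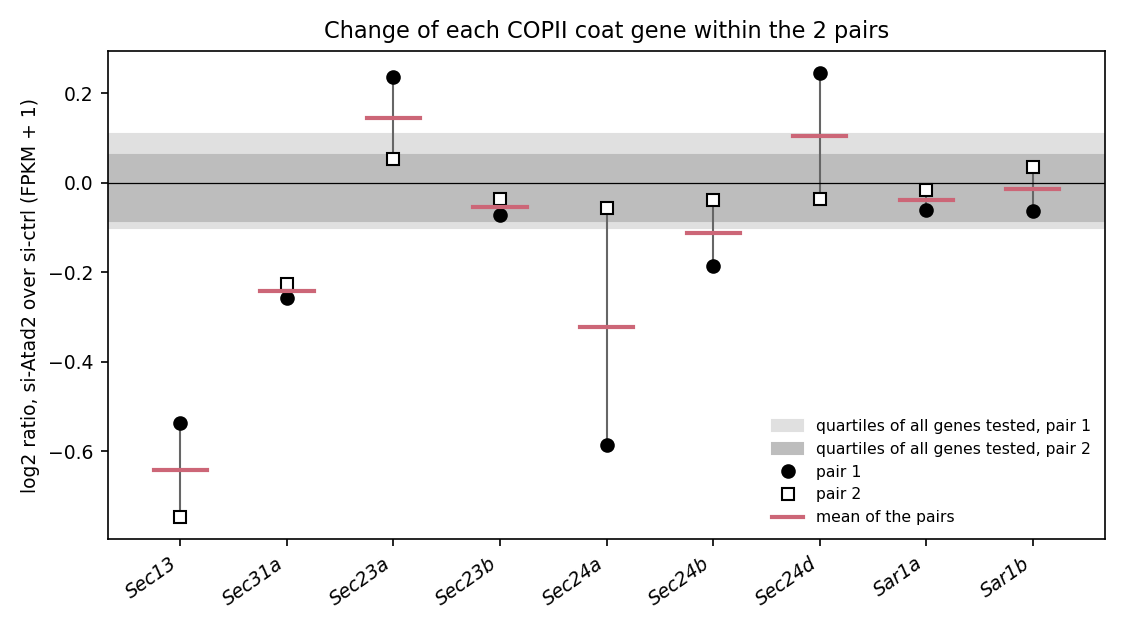
The log2 ratio of si-Atad2 over si-ctrl (FPKM + 1) of each measured COPII coat gene in pair 1 (filled circle) and pair 2 (open square), with the mean as a red bar and the quartiles of all 10147 genes tested as grey bands. Sec13 and Sec31a lie below the bands in both pairs, and Sec24a, at -0.59 and -0.056, and Sec24b, at -0.19 and -0.039, do so in the first pair alone.

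Among the 8 measured coat genes other than Sec13, 0 passed the adjusted p threshold in either direction, where 0.443% of the 10147 genes tested were called lower and 1.64% were called higher. Both si-Atad2 libraries lay below both controls for 4 of the 8 (Sec31a, Sec23b, Sec24a and Sec24b), where 26.8% of all genes did so, and above them for 1 (Sec23a), where 22.3% of all genes did so. The ratio was below 0 in both pairs for 5 of the 8, above 0 in both for 1, and of opposite sign for 2 (Sar1b and Sec24d). Over all 10147 genes these counts were 3451, 2894 and 3802. Their median log2 ratio was -0.046, beside -0.0081 over all genes tested, and it was -0.067 in the first pair and -0.036 in the second. The set came from this same contrast through Sec13, and nothing is read from these counts.

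**Figure D3:**
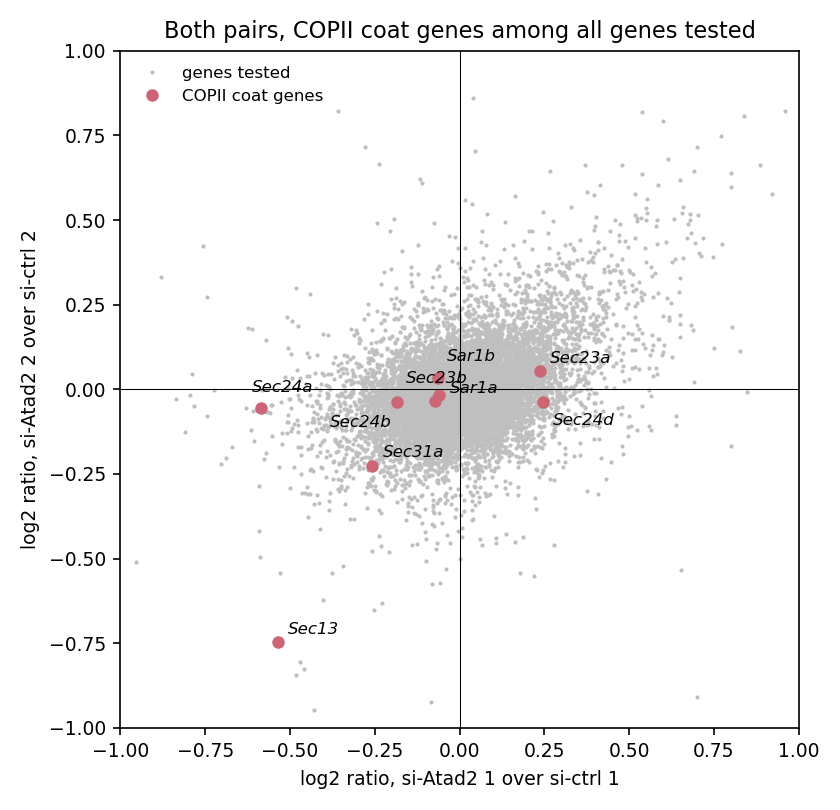
The log2 ratio of each gene tested in the first pair (x axis) against that in the second pair (y axis), with the 9 measured COPII coat genes in red and 15 genes beyond 1 on either axis left out. Sec13 lies at -0.54 and -0.75 outside the main cloud, Sec31a at its lower left edge, and the other coat genes within it or displaced along the first pair only.

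Factors that organise or recycle the COPII coat, such as the Sec16 scaffold and the TANGO1 family, were taken from a list of 12 genes. Of these, 10 were tested and 0 passed in either direction, where 0.443% of the 10147 genes tested were called lower and 1.64% higher. In both pairs 4 were lower and 2 higher, beside 3451 and 2894 of the 10147 genes tested. The lowest was Mia2, a partner of TANGO1 at ER exit sites, with 22.4 and 24.2 FPKM in the controls against 19.4 and 20.5 FPKM in si-Atad2. Its mean log2 ratio was -0.22 (SE 0.066, adjusted p = 0.13 by limma). With the highest transcript of Mia2 alone it was -0.074 (SE 0.084). The highest was Pef1, a calcium-binding regulator of Sec31 ubiquitylation, at 0.14 (SE 0.067, adjusted p = 0.32). Sec31b, the paralogue of Sec31a, read from 0.558 to 0.773 FPKM and Sec16b from 0.152 to 0.262 FPKM, both under the minimum.

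The cargo receptors and SNAREs of the step from ER to Golgi gave 1 gene past the threshold. Of 26 listed genes, 20 were tested, 1 was called higher and 0 lower. Over all 10147 genes tested, 1.64% were called higher and 0.443% lower. Gosr2, also called membrin, a SNARE of vesicle fusion at the cis-Golgi, rose from 25.6 to 32.8 FPKM in the first pair and from 24.6 to 32.4 FPKM in the second. Its groups did not overlap, and its mean log2 ratio was 0.36 (SE 0.064, adjusted p = 0.014). With 1 library left out, the fit without pairs gave log2 ratios from 0.34 to 0.39. Such a fit leaves 1 library in a condition, so no p is given. With all 4 libraries, the call was lost with transcripts of all lengths (adjusted p = 0.11 by limma) and without the filter on low values (0.50). Ergic1, a cycling receptor of the ER-Golgi intermediate compartment, was the lowest, with 33.4 and 32.3 FPKM in the controls against 26.3 and 29.0 FPKM in si-Atad2. Its mean log2 ratio was -0.24 (SE 0.069, adjusted p = 0.11 by limma). With transcripts named by length it was -0.078 (SE 0.11), and with its highest transcript alone -0.25.

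The COPI coat carries vesicles back from the Golgi to the ER. It had 9 of 10 genes tested and 0 called, from Copz2 at -0.16 to Copb2 at 0.054 on the log2 scale. Over all 10147 genes tested, 1.64% were called higher and 0.443% lower, so nothing is read from 0 calls in lists this short. The other complexes of Sec13 were examined too. All 9 further subunits of the nuclear pore Y complex were tested and 0 passed, from Nup133 at -0.074 to Seh1l at 0.17 (adjusted p = 0.18). Of 7 GATOR subunits 6 were tested and 0 passed, from Wdr59 at -0.017 to Mios at 0.21 (adjusted p = 0.27), and the sign of Wdr59 turned on rescaling to TPM (0.014). Seh1l, which like Sec13 belongs to both complexes, read 62.2 and 65.5 FPKM in the controls against 71.8 and 72.3 FPKM in si-Atad2. The 2 small propeller proteins that both complexes hold thus lay on opposite sides of the control. The ratio of Seh1l did not pass the test and the fall of Sec13 chose the set, so nothing is read from this contrast.

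The ER translocon, through which cargo proteins enter the ER, had all 6 genes tested and 0 called, from Sec61a2 at -0.088 to Sec62 at 0.045. Of 10 regulators and targets of the unfolded protein response, 9 were tested, 1 was called higher and 0 lower. Over all 10147 genes tested, 1.64% were called higher and 0.443% lower. Creb3l2, a membrane-bound transcription factor known to control COPII genes in cartilage, rose from 2.43 to 3.996 FPKM in the first pair and from 2.30 to 3.01 FPKM in the second, a mean log2 ratio of 0.41 (SE 0.091, adjusted p = 0.044). The call was lost under 9 of 18 alternatives. Among them were the fit without pairs (adjusted p = 0.11) and the same fit without si-ctrl 1 or si-ctrl 2. Its relative Creb3l1 was the lowest of the list, at -0.21 (SE 0.075, adjusted p = 0.19). Hspa5, the main ER chaperone, read 187.5 and 189.1 FPKM in the controls against 198.1 and 189.0 FPKM in si-Atad2. Its mean log2 ratio was 0.039 (SE 0.057, adjusted p = 0.79 by limma). Other members were less flat. Dnajb9 had log2 ratios of 0.42 and 0.16 (mean 0.29, SE 0.081, adjusted p = 0.093 by limma), and Xbp1 had 0.13 and -0.27. Of the 9 tested, 3 were higher in both pairs and 3 lower in both, beside 2894 and 3451 of the 10147 genes tested. Hspa5, Dnajb9 and Xbp1 are named here after their values were seen.

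**Figure D4:**
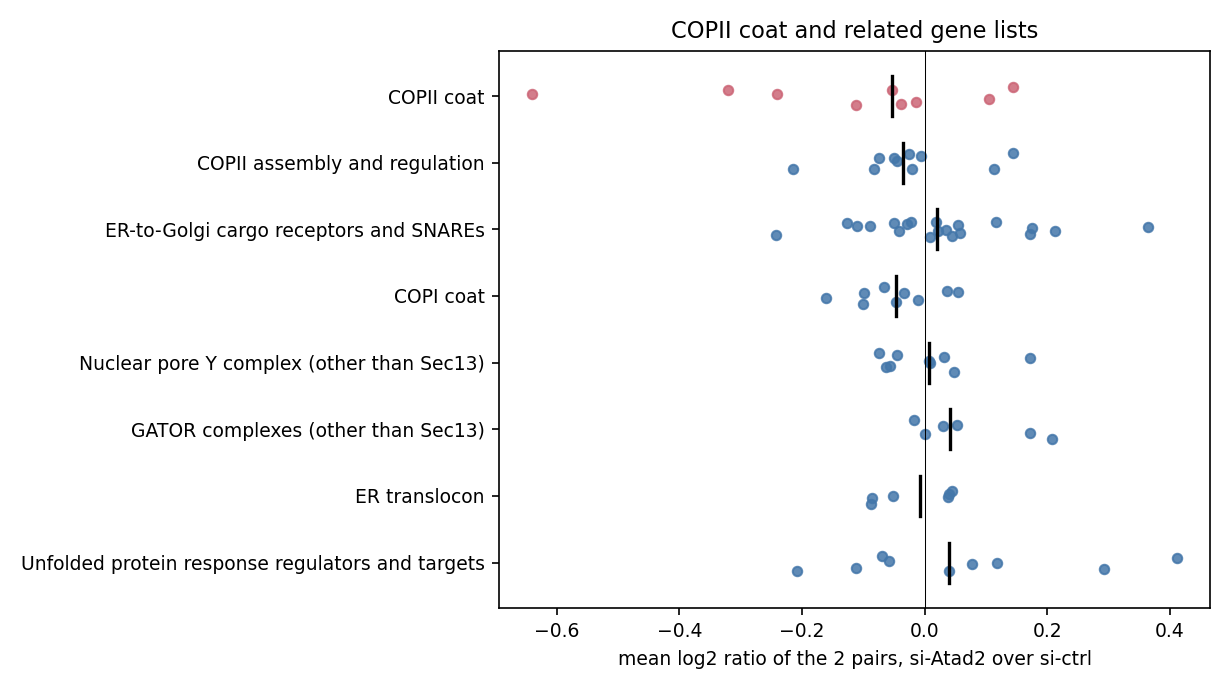
Mean log2 ratio of the 2 pairs for each tested gene (points, spread vertically for display) of the COPII coat, in red, and of the related gene lists, in blue, with the median of each as a black bar. Sec13 at -0.64 is the lowest point drawn, and the medians of the lists run from -0.054 to 0.042.

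The genes nearest to Sec13 in both pair ratios were sought among 1028 genes within a factor of 2 of its mean level, by the straight distance between the 2 log2 ratios. Scd2, a stearoyl-CoA desaturase that makes unsaturated fatty acids in the ER membrane, was the nearest at a distance of 0.26. It read 82.9 and 63.6 FPKM in the first pair and 87.7 and 59.9 FPKM in the second, log2 ratios of -0.38 and -0.54. Eef1e1, a scaffold of the multi-tRNA synthetase complex, stood at a distance of 0.50, with log2 ratios of -0.33 and -0.29. Larp1, an RNA-binding protein of mRNAs for the translation machinery, stood at 0.51, with log2 ratios of -0.36 and -0.26. Scd2, the nearest of the 1028, lay less far below 0 than Sec13 in each pair, but Sec13 was chosen for its fall.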

How the data were processed

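TruSeq libraries of total RNA were sequenced as paired ends of 50 cycles. TopHat and Cuffdiff are named in the submitters' processing notes, without versions, and mm9 as the build, but the deposited loci lie at GRCm38 positions. Each si-Atad2 library was compared by the authors with the si-ctrl library of its number, which gave FPKM of 59120 transcripts with 95% intervals, scaled within each run. The columns of fold changes and p-values were not used.

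Transcripts were named from GENCODE vM21 by a length within 3 bases at their locus, or as the only coding gene of the locus (15451 stayed unnamed), and FPKM of those of at least 200 bases was summed per gene. Genes with a mean of at least 1 FPKM were tested by limma 3.58.1 in R 4.3.3 on log2((si-Atad2 + 1)/(si-ctrl + 1)) of the 2 pairs (lmFit, eBayes with a trend), with Benjamini-Hochberg adjustment over 10147 genes and a threshold of 0.05. These ratios understate the change of low genes. With 2 libraries against 2, an exact permutation test could not go below p = 0.333 and was not used. The pairs are those of the authors' runs. Same-numbered libraries did not deviate together from their groups (Pearson's r across genes -0.032).

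The coat genes and all lists were chosen with earlier results of these data known. Named are all coat genes, Atad2, the called genes and both extremes of each related list, and the 3 genes nearest to Sec13. Hspa5, Dnajb9 and Xbp1 were added after their values were seen. Alternatives were pseudocounts, TPM, median of ratios, filters, transcript choices, no pairs, eBayes without a trend, removal of the GC trend, a threshold of 0.1 and libraries left out. Figures were drawn with Python 3.11.15 and matplotlib 3.10.9.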

Additional observations from a re-analysis of the deposited data

How the results depend on the processing

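The fall of Sec13 chose the set, so its values under the alternatives are a description. It had no value with length-named transcripts. In the 18 alternatives with a value its ratio stayed below 0. It ran from -0.81 without si-Atad2 1 to -0.47 without si-Atad2 2 in the fit without the replicate block. Filters and the other transcript choices left it at -0.64 and could not change it, as Sec13 has 1 transcript. Sec31a kept its direction under all 20 (from -0.26 to -0.21) and passed at a threshold of 0.1. With all 4 libraries in the fit, its adjusted p by limma ranged from 0.057 to 0.50. In the same fits the adjusted p of Gosr2 ranged from 0.0056 to 0.50 and that of Creb3l2 from 0.025 to 0.55. Without the filter on low values Atad2 no longer passed (-1.53, adjusted p = 0.50). The median of the coat genes other than Sec13 moved to -0.012 in TPM, and ranged from -0.076 to -0.036 with a library or pair left out. Signs turned for Sar1b (0.020 in TPM, 0.036 without si-Atad2 1), Sec24d (-0.062 without si-Atad2 1), Wdr59 (0.014 in TPM), Sec61a2 (0.053 among transcripts named by length, 0.0028 without si-Atad2 1) and Copz2 (0.013 without si-Atad2 2). The second pair alone also turned Sar1b (0.034), Sec24d (-0.037), Sec61a2 (0.024) and Sec62 (-0.0015), as values with no test. None of these passed the test in the fit of the report.

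The number of changed genes was 211 of the 10147 tested. It became 0 of 20448 by limma without the filter (1898 at an unadjusted p under 0.05) and 32 of 3637 with length-named transcripts. With all lengths it was 19 of 10192. It was 103 with the GC trend removed and the replicate block kept, and 430 at a threshold of 0.1. It ranged from 11 (without si-ctrl 1 or si-ctrl 2) to 1908 (without si-Atad2 2), and was 725 without si-Atad2 1, where a condition left with 1 library is assumed to vary like the other. Without the replicate block it was 145. The 2 called genes of the related lists became 1 with median of ratios, a minimum of 5 FPKM, no replicate block, the GC trend removed or the added tolerance of 20 bases, and 0 with no filter, all lengths or length-named transcripts, and ranged from 0 to 12 with a library left out. At the minimum of 5 FPKM Creb3l2 was no longer among the genes tested, and with length-named transcripts neither Gosr2 nor Creb3l2 was. The lower numbers there reflect genes left out of the test and not calls lost in it. The causes of the other changes in number were not tested. Calls rest on 2 pairs, and the tables hold no counts from which a depth limit could be computed.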
